A study of Danio rerio with 10 samples.

Results

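The lens crystallin genes were read by 13 of the 15502 probe sets tested on a zebrafish gene expression array. They were taken by name, as every probe set whose gene symbol begins with crya, cryb or cryg, leaving out the crybg genes and the light-sensing cryptochromes. Of the 13, 11 carried 1 gene symbol each: cryaa and cryaba of the alpha class, cryba4 and crybb1 of the beta class, and crygmxl2, crygm2c, crygm2f, crygm4, crygm6, crygs1 and crygs2 of the gamma class. The other 2 were annotated to several crygm2d genes, 12 symbols for one and 7 for the other, and are called the brighter and the dimmer crygm2d probe set here. Neither can be given to a single gene, and the dimmer one carries a suffix that marks probes which may also bind unrelated transcripts. Both may read some of the same crygm2d transcripts, yet each is counted as 1 member below. A further probe set was annotated to crygm4 together with efemp2b and was not counted as a member. RefSeq names 57 genes of the family, and 11 of them were read by a probe set with 1 symbol. The others were not analysed gene by gene here.

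RNA came from wild-type embryos at 72 h after fertilization, injected with morpholinos at the stage of 1 to 2 cells, in 1 to 2 nL at 130 micromol/L. Morpholinos are synthetic antisense oligonucleotides that block translation or splicing of a target RNA. There were 3 arrays of control morphants, 3 of Atg7 morphants, 3 of dual morphants that received both the Atg7 and the Bdh2 morpholino, and 1 of Bdh2 morphants. Atg7 is an enzyme of autophagosome formation and Bdh2 a dehydrogenase linked to siderophore synthesis. The labels do not say what the control morpholino targeted, how many embryos were pooled, or whether the replicates were separate clutches, so the p-values below rest on variation among these arrays, some or all of which could be technical. It is also not stated whether 130 micromol/L in dual morphants was each morpholino or their sum. Comparisons of dual with single morphants may therefore differ in dose as well as in target. In RNA of embryos, fewer lens cells and less RNA per lens cell cannot be told apart.

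Crystallins are the packed, long-lived proteins that make the lens transparent and refractive. The alpha crystallins are small heat shock proteins that hold damaged proteins in solution. The beta and gamma crystallins share a fold of Greek key motifs and serve as structural proteins. The gamma M crystallins are a large, methionine-rich group of the hard fish lens. Lens fibre cells make crystallins in bulk while they elongate, and then break down their nuclei and other organelles.

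Values are log2 intensities, so a difference of 1 is a 2-fold change. Array medians lay between 6.33 and 6.38. Differences are given with their standard error from a limma fit of all 10 arrays, and p-values are adjusted by the Benjamini-Hochberg method over all 15502 probe sets. An adjusted p under 0.05 counted as passing. For the lone Bdh2 array the fit assumed the variance of the triplicate groups, so comparisons with that array have no replicate check. For the actin control, the signal at the 3 prime end minus that at the 5 prime end, a sign of RNA quality, lay between 3.41 and 3.53 in control arrays, 3.86 and 4.05 in Atg7 arrays and 3.83 and 3.91 in dual arrays, and was 4.30 in the Bdh2 array. It moves with the groups compared below, and its part in the results was not tested. The targeted bdh2 transcript stood at 7.17, 7.07 and 7.27 in control arrays, at 7.38, 7.28 and 7.17 in dual ones and at 7.47 in the lone Bdh2 array, so it was not lower where its morpholino was injected (dual minus control 0.11 ± 0.072, adjusted p = 0.297; Bdh2 minus control 0.30 ± 0.10, adjusted p = 0.0429). The RNA level is not informative for a translation blocker, and since the labels do not give the kind used, the knockdown could not be checked here. The atg7 transcript was not analysed here.

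The crystallin probe sets spanned almost the whole range of the array. The brighter crygm2d probe set had a higher mean level than 99.8% of the probe sets tested or equal to it. The corresponding percentile was 96.8 for the dimmer crygm2d probe set, 95.1 for cryba4, 90.7 for crygmxl2, 89.4 for crybb1, 61.3 for crygm2c and 42.3 for cryaa. The other 6, crygm4, crygs2, cryaba, crygs1, crygm2f and crygm6, stood at percentiles between 31.7 and 0.703, with values of 2.81 to 5.35. No detection calls were used. The bright gamma M and beta signals show that lens RNA was sampled in all 4 groups. Of the other genes by which lens is recognised, the fibre connexin genes gja8b and gja3 stood at 4.88 and 5.04 in control arrays, and mipa, mipb, foxe3, pitx3 and bfsp1 were not analysed here.

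In the RefSeq gene order of the GRCz12tu assembly, crybb1 and cryba4 are adjacent on chromosome 10, crygmxl2 lies beside crygmx on chromosome 12, and 36 of the 57 family genes, the crygm2d genes among them, lie on chromosome 9. crygm2c, crygm2f, crygm6 and crygs2 are on chromosome 9 as well.

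Atg7 morphants were compared with control morphants to see what targeting autophagy through Atg7 alone does. Both beta crystallins, crygmxl2 and both crygm2d probe sets rose, and no crystallin fell. These 5 of 13 probe sets (38.5%) compare with 9.91% of all probe sets past the threshold and 6.26% past it and higher. The median difference was 0.19 over the 13 and -0.0092 over all probe sets tested.

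cryba4, which encodes a beta crystallin of the acidic kind, stood at 9.50, 9.48 and 9.60 in control replicates 1 to 3 and at 10.44, 10.52 and 10.59 in Atg7 replicates 1 to 3. The groups were far apart, with a rise of 0.99 ± 0.063 (1.99-fold, adjusted p = 2.17e-06). Its probe set carries a suffix that marks probes shared between transcripts of a gene. crybb1, a beta crystallin of the basic kind, stood at 8.65, 8.75 and 8.72 in control arrays and at 9.01, 9.01 and 9.05 in Atg7 arrays. These groups did not overlap either, but the rise was smaller, 0.32 ± 0.056 (1.24-fold, adjusted p = 0.00452).

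crygmxl2, a gene similar to the gamma M crystallins, stood at 9.11, 8.99 and 9.08 in control arrays and at 9.82, 9.80 and 9.85 in Atg7 arrays. It rose by 0.76 ± 0.065 (1.70-fold, adjusted p = 2.28e-05). The brighter crygm2d probe set stood at 13.78, 13.77 and 13.72 in control arrays and 14.11, 14.14 and 14.12 in Atg7 arrays, a rise of 0.37 ± 0.053 (adjusted p = 0.0013). The highest value of any probe set tested was 14.9. The dimmer crygm2d probe set stood at 10.80, 10.72 and 10.68 in control arrays and at 11.23, 11.25 and 11.05 in Atg7 arrays, a rise of 0.44 ± 0.070 (adjusted p = 0.0021).

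The remaining members did not pass the threshold. cryaa, the alpha A chaperone, stood at 5.48, 5.35 and 5.82 in control arrays and at 5.58, 5.91 and 5.73 in Atg7 arrays, and the groups overlapped (difference 0.19 ± 0.12, adjusted p = 0.34). crygm2c stood at 6.98, 6.95 and 7.26 in control arrays and at 7.21, 7.29 and 7.25 in Atg7 arrays, with control replicate 3 inside the Atg7 range (difference 0.19 ± 0.083, adjusted p = 0.18). Without that array the difference was 0.29 and passed (adjusted p = 0.0369). Differences of the 6 dim members ran from -0.27 to 0.053, with adjusted p from 0.134 to 0.781, and their 95% intervals together spanned -0.50 to 0.25. The lowest of these was crygs1, a gamma S crystallin, which passed without Atg7 replicate 3 (-0.40, adjusted p = 0.0191). That fit kept Atg7 replicate 1, the array in which every dim member was lowest, with crygs1 at 3.66.

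**Figure D1:**
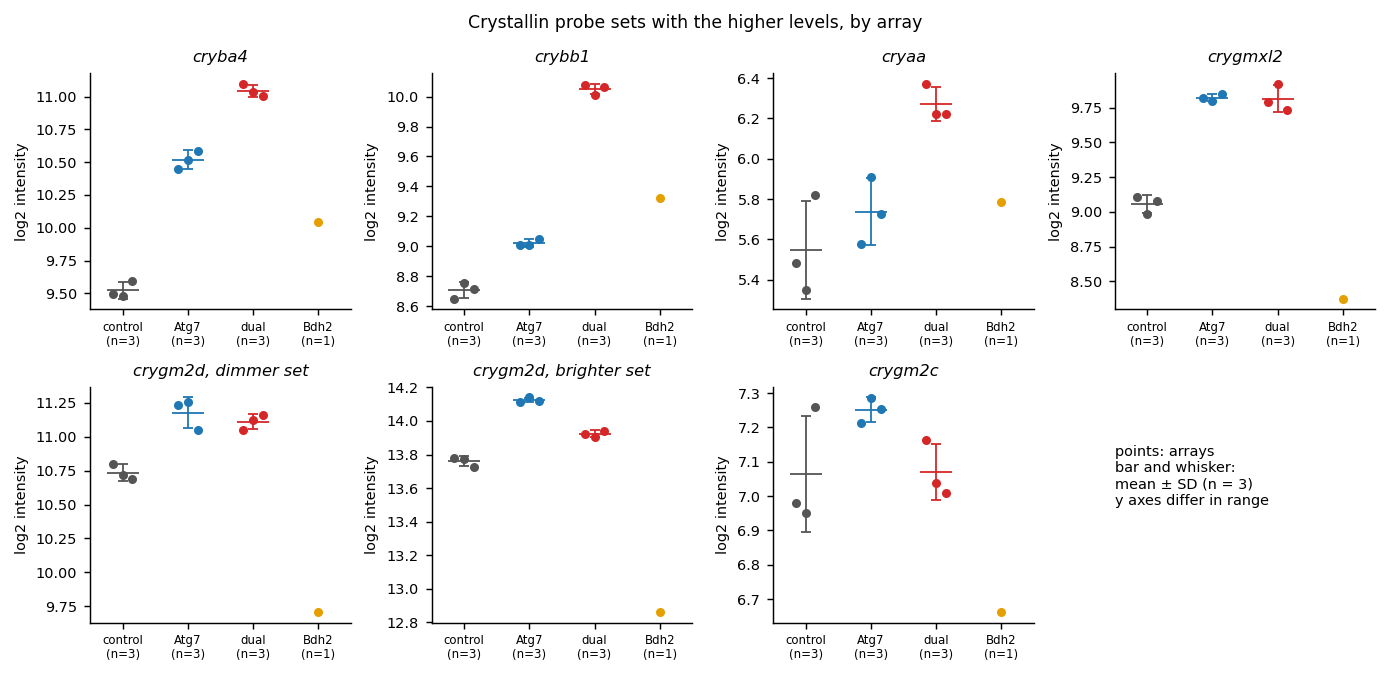
Log2 intensity of the 7 crystallin probe sets with the highest levels, by group; points are arrays, horizontal bars with whiskers are the mean ± SD (n = 3), and the y axes differ in range. cryba4 and crybb1 were above every control array in all morphants, whereas crygmxl2, both crygm2d probe sets and crygm2c were lower in the Bdh2 array than in any other array.

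Dual morphants were compared with controls to see what targeting both genes does. The beta crystallins rose furthest, cryaa rose as well, and of the 7 gamma M probe sets crygmxl2 and both crygm2d probe sets rose, while the other 4 did not pass. In all, 6 of 13 rose (46.2%) and 0 fell, against 32.5% of all probe sets past the threshold and 16.7% past it and higher. With a 1.5-fold change required as well, 4 of 13 rose, against 3.03% of all probe sets. The median difference was 0.044 over the 13 and -0.0077 over all probe sets, since the dim members stayed near 0.

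cryba4 stood at 11.10, 11.03 and 11.00 in dual replicates 1 to 3. All of them were above all Atg7 arrays, which in turn were above all controls, and the rise over control was 1.52 ± 0.063 (2.87-fold, adjusted p = 6.47e-09). crybb1 stood at 10.08, 10.01 and 10.06 in dual arrays, again with no overlap with any other group. It rose over control by 1.34 ± 0.056 (2.54-fold, adjusted p = 6.98e-09). cryaa stood at 6.37, 6.22 and 6.22 in dual arrays, above the highest control value of 5.82. It rose by 0.72 ± 0.12 (1.65-fold, adjusted p = 0.000481), while cryaba, an alpha B gene, was at 4.61, 4.33 and 4.57 in dual arrays and 4.53, 4.42 and 4.46 in control arrays, with overlap (difference 0.035 ± 0.083, adjusted p = 0.794).

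crygmxl2 stood at 9.79, 9.92 and 9.73 in dual arrays, above all controls (0.76 ± 0.065, adjusted p = 3.98e-06). The dimmer crygm2d probe set stood at 11.05, 11.12 and 11.16, a rise of 0.37 ± 0.070 over controls (adjusted p = 0.00142). The brighter one stood at 13.93, 13.90 and 13.94, higher by 0.16 ± 0.053 (adjusted p = 0.0334). That last call ended without any 1 of the 6 control and dual arrays, with adjusted p between 0.0663 and 0.0946 and differences of 0.15 to 0.18. crygm2c was at 7.16, 7.04 and 7.01 in dual arrays (difference 0.0059 ± 0.083, 95% interval -0.17 to 0.19, adjusted p = 0.968).

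Dual and Atg7 morphants were compared to see what the Bdh2 morpholino adds to the Atg7 morpholino. cryaa and both beta crystallins were higher in dual morphants, the brighter crygm2d probe set was lower, and the other 9 members, cryaba among them, did not pass. No difference between the classes was tested. Of the 13, 3 rose and 1 fell, against 33.0% of all probe sets past the threshold (15.8% higher and 17.2% lower), so the share of members called, 30.8%, was near the background. The median difference was 0.025 over the 13 and 0.012 over all probe sets.

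crybb1 rose by 1.03 ± 0.056 from Atg7 to dual morphants (2.04-fold, adjusted p = 8.62e-08). cryba4 rose by 0.53 ± 0.063 (1.44-fold, adjusted p = 5.79e-05) and cryaa by 0.54 ± 0.12 (1.45-fold, adjusted p = 0.0038). For each of these 3 genes the lowest dual array was above the highest Atg7 array, as for 21.6% of all probe sets.

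The brighter crygm2d probe set fell by 0.20 ± 0.053 (adjusted p = 0.0125). crygmxl2 differed by -0.0078 ± 0.065 (95% interval -0.15 to 0.13, adjusted p = 0.943) and the dimmer crygm2d probe set by -0.067 ± 0.070 (adjusted p = 0.505). crygm2c differed by -0.18 ± 0.083 (adjusted p = 0.115), although its Atg7 and dual arrays did not overlap. The 6 dim members differed by -0.024 to 0.24, the highest being crygs1, which passed without Atg7 replicate 3 (0.37, adjusted p = 0.00824). Here too the fit kept Atg7 replicate 1, the array in which every dim member was lowest.

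The Bdh2 array was set against the controls to see what the Bdh2 morpholino does alone, with 1 array on that side. Both beta crystallins were higher in it, and 4 of the 7 gamma M probe sets, crygmxl2, crygm2c and the crygm2d probe sets, were lower, while the other 3 did not pass. Of the 13 probe sets, 2 rose and 4 fell (46.2% in all), against 28.2% of all probe sets, of which 15.0% were higher and 13.2% lower. The median difference was 0.051 over the 13 and 0.045 over all probe sets.

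crybb1 was at 9.32 in the Bdh2 array, between the Atg7 and the dual arrays and above all controls (0.61 ± 0.080, 1.53-fold, adjusted p = 0.000149). cryba4 was at 10.04, between the control and the Atg7 arrays (0.52 ± 0.089, 1.43-fold, adjusted p = 0.00117). cryaa was at 5.79, inside the control range (0.24 ± 0.16, adjusted p = 0.316).

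The dimmer crygm2d probe set was at 9.71, lower than any of the other 9 arrays (-1.03 ± 0.099, 2.04-fold lower than in controls, adjusted p = 1.48e-05). The brighter one was at 12.86 (-0.90 ± 0.076, 1.86-fold lower, adjusted p = 5.26e-06). crygmxl2 was at 8.38 (-0.68 ± 0.092, 1.60-fold lower, adjusted p = 0.000202), also below all other arrays. crygm2c was at 6.66 (-0.40 ± 0.12, 1.32-fold lower, adjusted p = 0.0235). The 4 gamma M probe sets with levels above the dim range were thus each lowest in the Bdh2 array. How many of all probe sets were lowest in that array was not counted, so this is a description only. The 6 dim members differed from controls by -0.19 to 0.19 with adjusted p of at least 0.254.

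**Figure D2:**
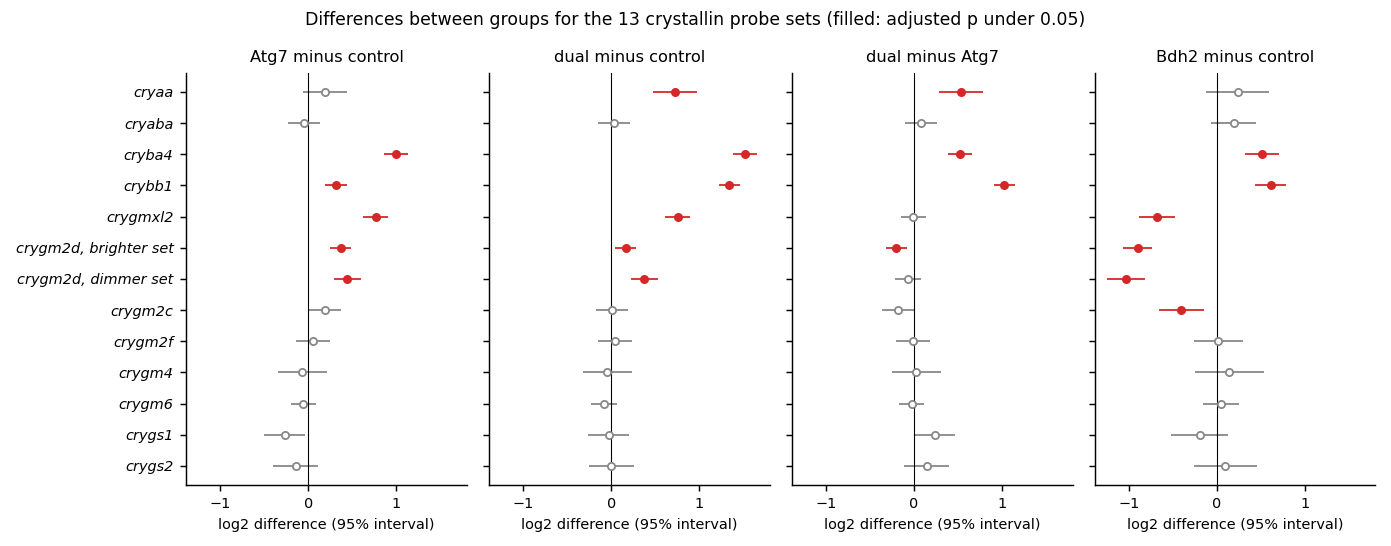
Log2 differences of the 13 crystallin probe sets (rows) in 4 comparisons (panels), with 95% intervals from the limma fit; filled red points passed an adjusted p of 0.05 and open grey points did not. In Bdh2 minus control, 2 beta crystallins lie to the right of 0 and 4 gamma M probe sets to the left, whereas all 6 calls in dual minus control lie to the right.

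Set against the same lone array, dual morphants were higher in both beta crystallins and in 4 of the 7 gamma M probe sets. In dual minus Bdh2, 6 of 13 rose and 0 fell, against 12.1% of all probe sets past the threshold and 6.53% past it and higher. The differences were 1.44 ± 0.092 for crygmxl2 (2.71-fold), 1.40 ± 0.099 and 1.06 ± 0.076 for the dimmer and the brighter crygm2d probe set, 1.00 ± 0.089 for cryba4 (2.01-fold), 0.73 ± 0.080 for crybb1 and 0.41 ± 0.12 for crygm2c. The adjusted p was at most 0.000138 for all of these but crygm2c, whose call (adjusted p = 0.0421) ended without each of the dual arrays in turn (adjusted p = 0.0537 to 0.0845). cryaa differed by 0.49 ± 0.16 (adjusted p = 0.0769), and this passed after quantile normalization (adjusted p = 0.0324) and with a trended, robust variance model (adjusted p = 0.0393). Since dual minus Bdh2, dual minus Atg7 and dual minus control share the dual arrays, these comparisons are not independent of each other.

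Whether the 2 morpholinos added up on the log2 scale was tested as dual minus Atg7 minus Bdh2 plus control. crygmxl2, both crygm2d probe sets and crybb1 stood higher in dual morphants than the sum of the single effects gives. In this contrast 4 of 13 were higher and 0 lower, against 8.13% of all probe sets past the threshold and 3.81% past it and higher. The departure was 0.96 ± 0.12 for the dimmer crygm2d probe set (adjusted p = 0.000587), 0.69 ± 0.093 for the brighter one (adjusted p = 0.000802), 0.67 ± 0.11 for crygmxl2 (adjusted p = 0.00355) and 0.41 ± 0.098 for crybb1 (adjusted p = 0.0234). The crybb1 call ended without control replicate 2 (0.39, adjusted p = 0.0626). For cryba4 the departure was 0.012 ± 0.11 (adjusted p = 0.971), with a 95% interval of -0.23 to 0.25. All of these values rest on the lone Bdh2 array.

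The neighbouring genes crybb1 and cryba4 rose in the same comparisons but by unequal steps, which can be read from the distance between both probe sets within each array. Their log2 distance, crybb1 minus cryba4, was -0.82 ± 0.080 in control, -1.49 ± 0.052 in Atg7 and -0.99 ± 0.046 in dual arrays (SD, n = 3 each), with the Bdh2 array at -0.72. The triplicate groups did not overlap, and an exact permutation test, two-sided, gave p = 0.1 for each pair of groups, the smallest that 3 arrays against 3 allow, so no distance could pass the threshold and these values are a description. Adjusted over the 24 distances tested, the exact permutation p was 0.12. The distance of crybb1 from crygmxl2 was -0.35 ± 0.11 in control, -0.80 ± 0.010 in Atg7 and 0.24 ± 0.13 in dual arrays (SD, n = 3 each), with the Bdh2 array at 0.95. These groups did not overlap either (exact permutation p = 0.1, adjusted p = 0.12 for each pair of groups). Between crybb1 and the brighter crygm2d probe set the control distance of -5.05 ± 0.065 and the Atg7 distance of -5.10 ± 0.033 (SD, n = 3 each) overlapped, with an exact permutation p of 0.3. The dual distance was -3.87 ± 0.023 (SD, n = 3) and that of the Bdh2 array -3.54, so that both sets of arrays with the Bdh2 morpholino stood apart from those without it.

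**Figure D3:**
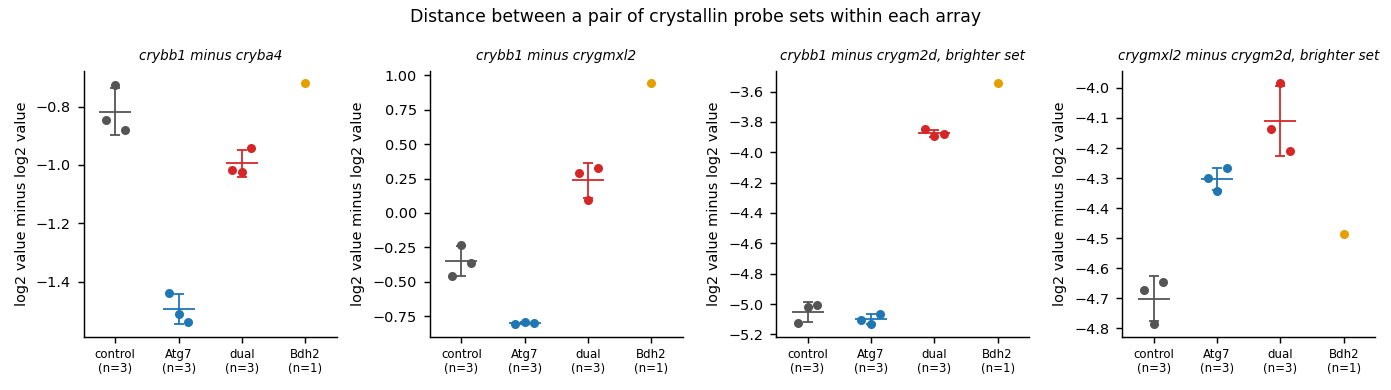
Log2 value of a crystallin probe set minus that of another, within each array, by group; points are arrays and bars with whiskers the mean ± SD (n = 3). The distance of crybb1 from crygmxl2 runs from -0.80 in Atg7 arrays to 0.95 in the Bdh2 array, and that of crybb1 from the brighter crygm2d probe set separates the 4 arrays with the Bdh2 morpholino from the other 6.

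Across the 10 arrays the members fell into sets of like profile. The following Pearson correlations describe arrays that share a group in threes, so they carry no test. crybb1 correlated with cryaa at 0.90 and with cryba4 at 0.87. The crygm2d probe sets correlated with each other at 0.98, and crygmxl2 with them at 0.93 and 0.89. crygm2c correlated with the brighter crygm2d probe set at 0.845 and with crygmxl2 at 0.72. Between the sets the values were 0.037 for crybb1 with the brighter crygm2d probe set and 0.44 for crybb1 with crygmxl2, but 0.75 for cryba4 with crygmxl2, so the sets were not sharply apart. Among the dim members, crygm4 correlated with crygs2 at 0.84. All dim members had their lowest value in Atg7 replicate 1, where the dimmest 25% of probe sets also ended lowest, at 4.57. The part of this in their correlation was not tested.

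**Figure D4:**
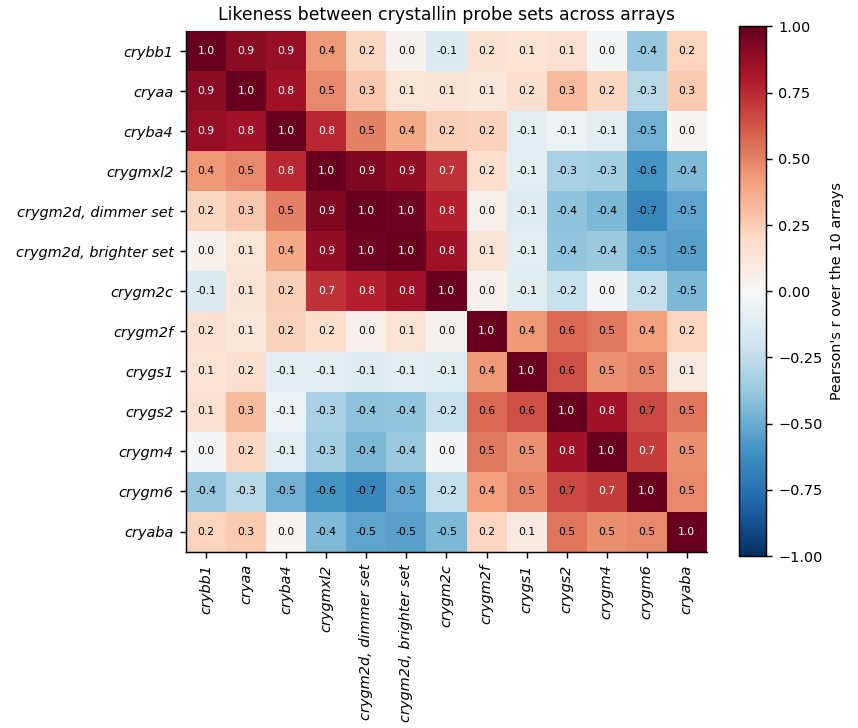
Pearson's r between the 13 crystallin probe sets over the 10 arrays, from -1 (blue) to 1 (red), printed to 1 decimal. crybb1, cryaa and cryba4 form a red block at the upper left and crygmxl2, the crygm2d probe sets and crygm2c another beside it, with r of 0.037 between crybb1 and the brighter crygm2d probe set.

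Among the 10784 other probe sets with 1 gene symbol, those most like cryba4 were snn (r = 0.99), dnajb6b, which encodes a cochaperone of Hsp70 (0.98), hoxb6b (0.98), cxl34b.11 and cast, which encodes the calpain inhibitor calpastatin (both 0.98), over the same 10 arrays. Most like crybb1 were aga, a lysosomal amidase gene (0.99), the neuronal RNA-binding protein gene elavl3 (0.99), hmgb3a (0.99), pbx1a (0.98) and ttn.2 (0.98). Most like crygmxl2 were elavl4, a further neuronal RNA-binding protein gene (0.99), aplp1 (0.97), tcnbb (0.96), snap25a, which encodes a protein of synaptic vesicle release (0.96), and hp (0.96). Mean elavl4 levels were 8.33 in control, 8.70 in Atg7 and 8.71 in dual arrays, against 7.92 in the Bdh2 array. That low value follows from picking genes by their likeness to crygmxl2 over these arrays. By group means, aplp1, tcnbb, snap25a and hp were lowest in the Bdh2 array too. With 4 groups behind 10 arrays, high values of r arise wherever group means line up.

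The rest of the lens program was followed through lists of lens regulators and of genes for lens fibre membranes, cytoskeleton and maturation. Other tissues may also express listed genes, and RNA of embryos does not tell them apart. Of 26 regulator genes on 36 probe sets, 5 probe sets rose and 2 fell in Atg7 minus control. In dual minus control 12 rose and 3 fell, and in dual minus Atg7 10 rose and 4 fell. The medians were -0.0074, 0.096 and 0.095. Of 16 lens fibre genes on 20 probe sets, 1 rose and 0 fell in Atg7 minus control. In dual minus control 5 rose and 3 fell, and in dual minus Atg7 5 rose and 2 fell, with medians of -0.040, 0.0013 and 0.058. The shares called in these comparisons were 19.4%, 41.7% and 38.9% of regulator and 5%, 40% and 35% of fibre probe sets. Of all probe sets, 9.91%, 32.5% and 33.0% were called, and 6.26%, 16.7% and 15.8% were called and higher. Against the lone Bdh2 array both lists moved both ways. In Bdh2 minus control 22 regulator probe sets were higher and 14 lower, and 13 fibre probe sets were higher and 7 lower, whatever their p. By the same count, 8859 of all 15502 probe sets were higher and 6643 lower, so both lists leaned the way the whole array did. The medians there were 0.093 and 0.077, against 0.045 over all probe sets.

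lctla, a lactase-like gene whose mouse relative is expressed in lens, moved in the same order as cryba4 among the triplicate groups. It stood at 5.16 ± 0.058 in control, 5.78 ± 0.071 in Atg7 and 6.34 ± 0.0775 in dual arrays (SD, n = 3 each), with no overlap, and at 4.66 in the Bdh2 array, below all others. It rose by 0.62 ± 0.066 in Atg7 minus control (adjusted p = 0.000133) and by 1.18 ± 0.066 in dual minus control (adjusted p = 8.95e-08), and fell by 0.50 in Bdh2 minus control (adjusted p = 0.00181). bfsp2, which encodes phakinin, a protein of the beaded filaments of lens fibres, stood at 4.59 ± 0.22, 4.92 ± 0.22 and 5.32 ± 0.042 in control, Atg7 and dual arrays (SD, n = 3 each). It rose by 0.73 ± 0.12 in dual minus control (adjusted p = 0.000508), and was at 0.33 ± 0.12 in Atg7 minus control (adjusted p = 0.105), where the groups overlapped. That difference passed without control replicate 3 (0.45, adjusted p = 0.0353) or Atg7 replicate 3 (0.45, adjusted p = 0.0344). bfsp2 was dim, its control mean lying below 4.63 to 4.70, where the dimmest 25% of probe sets ended in control arrays.

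Of the regulators, prox1a, whose mouse relative is needed for lens fibre elongation, stood at 5.47 ± 0.015 in control and 5.93 ± 0.098 in dual arrays (SD, n = 3 each), a rise of 0.47 ± 0.065 (adjusted p = 0.000192). The homeobox gene meis1a rose by 0.38 ± 0.057 in Atg7 and 0.49 ± 0.057 in dual morphants over controls (adjusted p = 0.0014 and 4.98e-05). The paired-box eye regulators pax6a and pax6b differed in direction. pax6a rose by 0.35 ± 0.060 in dual minus control (adjusted p = 0.00087), while pax6b fell from 7.39 ± 0.072 to 6.95 ± 0.16 (SD, n = 3 each; difference -0.44 ± 0.081, adjusted p = 0.00137). mafbb, of the large Maf family, rose by 0.33 ± 0.064 in Atg7 minus control (adjusted p = 0.00725) and fell by 0.45 in dual minus Atg7 (adjusted p = 0.000225), and the Notch ligand gene jag1a rose by 0.53 ± 0.076 in dual minus Atg7 (adjusted p = 0.000238).

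Other genes of the fibre list moved both ways in dual morphants, and the tissue in which they did so is not known. celf1 and caprin2 encode RNA-binding proteins of the maturing lens. celf1 rose by 0.36 ± 0.067 and caprin2 fell by 0.56 in dual minus Atg7 (adjusted p = 0.00156 and 0.000322). The cadherin gene cdh2 rose by 0.35 ± 0.068 in dual minus control (adjusted p = 0.00186). The tropomodulin gene tmod4, known from skeletal muscle, fell by 0.27 in that comparison (adjusted p = 0.00434).

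Of the 3 small heat shock genes measured, relatives of the alpha crystallins, 0 rose and 2 fell in dual minus control, where 32.5% of all probe sets were called. hspb1 fell by 0.28 and hspb6 by 0.35 there (adjusted p = 0.00196 and 0.00579), where cryaa rose. In the Bdh2 array hspb1 was at 10.19 against 9.37 ± 0.028 in controls (SD, n = 3; difference 0.82 ± 0.078). The others went both ways there, with hspb8 at 8.36 against a control mean of 7.98 and hspb6 at 4.24 against 5.04. hspb8 rose by 0.26 ± 0.063 in Atg7 minus control (adjusted p = 0.0225), a call that ended without any 1 control array and without Atg7 replicate 1 or 2 (adjusted p of 0.0501 to 0.0805).

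Genes of the retina were followed beside the crystallins, by lists of photoreceptor and retinal progenitor genes. Of these, mki67, fabp7a and neurod4 are also expressed outside the retina, and RNA of embryos does not tell the tissues apart. Of 27 photoreceptor genes on 33 probe sets, 2 rose and 1 fell in Atg7 minus control, 1 rose and 5 fell in dual minus control, and 2 rose and 5 fell in Bdh2 minus control. These shares, 9.09%, 18.2% and 21.2%, were below the 9.91%, 32.5% and 28.2% of all probe sets called. The mean over their probe sets lay between 4.59 and 4.63 in control, 4.47 and 4.63 in Atg7 and 4.48 and 4.63 in dual arrays, and was 4.53 in the Bdh2 array. The dimmest 25% of probe sets on each array ended at a value between 4.57 and 4.73, so the list was dim on average. The part of this in its low shares was not tested. Opsin genes were among the dim ones, with opn1sw1 at 4.79 and opn1lw1 at 4.59 in controls. Of 9 genes of retinal progenitors and early retinal neurons on 13 probe sets, 1 rose in Atg7 minus control, 6 rose and 1 fell in dual minus control, and 2 rose and 4 fell in Bdh2 minus control. These shares were 7.69%, 53.8% and 46.2%, against the same 9.91%, 32.5% and 28.2%. Their mean lay between 7.89 and 7.95 in control, 7.92 and 7.96 in Atg7 and 8.06 and 8.07 in dual arrays, and was 7.76 in the Bdh2 array.

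Some retinal genes were low in the Bdh2 array, as crygmxl2, crygm2c and both crygm2d probe sets were, but the medians of the retinal lists were not lower. In Bdh2 minus control the median was 0.059 over the photoreceptor and 0.11 over the retinal progenitor probe sets, against 0.045 over all probe sets. Of the retinal genes named below, rbp4l and both mki67 probe sets were instead higher there than in controls. They stood at 9.83, 9.82 and 5.58, against control means of 9.57, 9.54 and 5.15. The other retinal genes named below were lower in that array than in controls, though pde6c and pde6ha had still lower means in dual arrays. crx, a homeobox regulator of photoreceptors, was at 4.004 there against 6.42 ± 0.059 in controls (SD, n = 3; -2.42 ± 0.11, adjusted p = 2.92e-08). vsx1, known from bipolar cells, was at 5.54 against 7.13 ± 0.11 (SD, n = 3; adjusted p = 2.94e-06), and atoh7, needed for retinal ganglion cells, at 5.49 against 6.59 ± 0.043 (SD, n = 3; adjusted p = 2.87e-06). In dual arrays crx stood at 6.41 ± 0.070 (SD, n = 3) and overlapped the controls. There vsx1 stood at 7.66 ± 0.12 and atoh7 at 6.99 ± 0.040 (SD, n = 3 each). All dual arrays of vsx1 and atoh7 were above the highest control values of 7.25 and 6.63. The cone phosphodiesterase genes pde6c and pde6ha fell in dual minus control, by 0.71 and by 0.80 in the pde6ha probe set with shared probes (adjusted p = 5.09e-05 and 0.000386; the other pde6ha probe set fell by 0.48). nr2e3, a rod regulator, rose by 0.54 ± 0.070 (adjusted p = 9.76e-05). The other genes followed from these lists, fabp7a, neurod4, mki67 and rbp4l, were at 0.35, 0.18, 0.22 and 0.16 in dual minus control. Of them, fabp7a and mki67 passed (adjusted p = 0.000346 and 0.016), and a second mki67 probe set was at 0.28 (adjusted p = 0.0341). Both mki67 calls ended without control replicate 1 or 2 (adjusted p of 0.0642 to 0.0878), and that of the second probe set also without control replicate 3 or dual replicate 3 (0.0763 and 0.122). The part of the retina in the crystallin results was not tested.

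**Figure D5:**
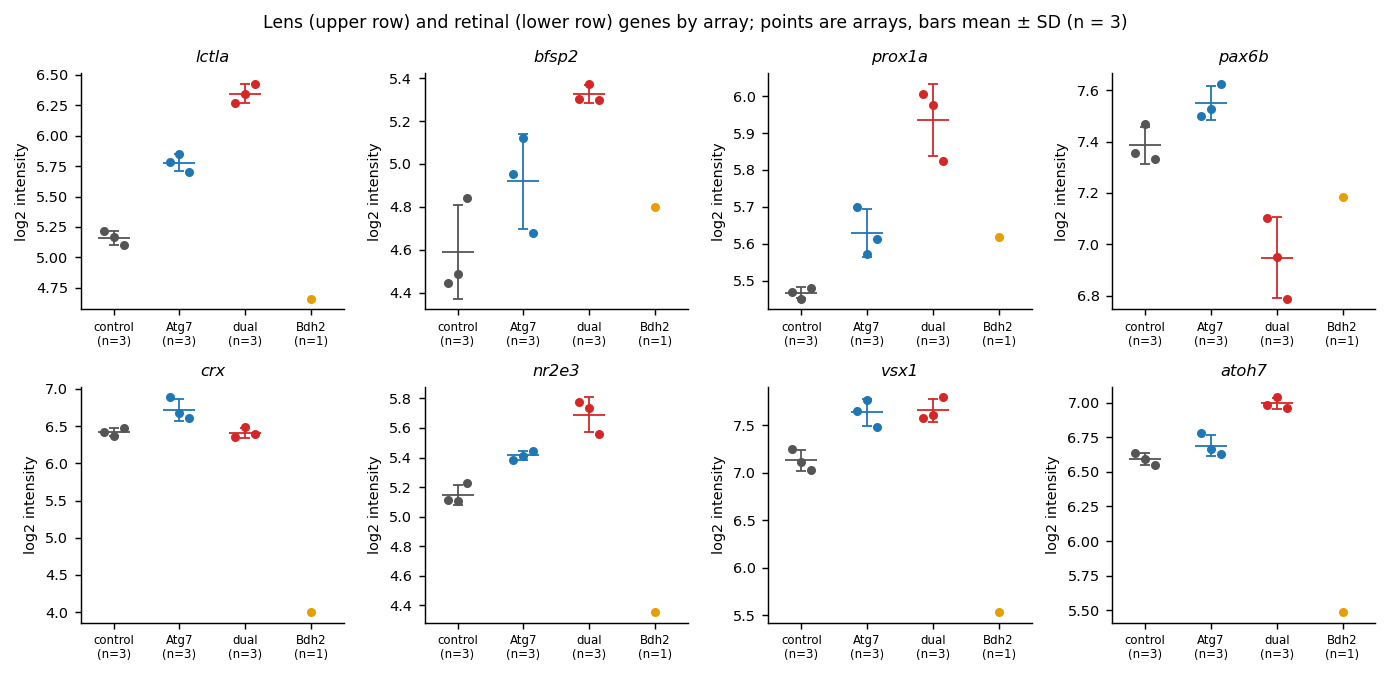
Log2 intensity of 4 lens genes (upper row) and 4 retinal genes (lower row) by group; points are arrays, bars with whiskers the mean ± SD (n = 3), and the y axes differ in range. lctla, bfsp2 and prox1a were highest in dual arrays and pax6b lowest there, while crx, nr2e3, vsx1 and atoh7 were lowest in the Bdh2 array.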

How the data were processed

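The authors deposited 1 log2 intensity per probe set and array for 10 arrays, and Affymetrix Expression Console is named in the submitters' processing notes. Summarisation, background correction and normalization are not given in the sources used here. The log2 scale was read from the values, 2.48 to 14.9. If the arrays were brought to a common distribution, a change shared by all transcripts would not show. Of 15617 probe sets, 115 controls were left out. The platform annotation gave 1 symbol for 10795 probe sets, several for 135 and none for 4572, and 10711 were matched to RefSeq by Entrez ID, with no coordinate used.

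All 4 groups were fitted with lmFit and eBayes (limma 3.58.1, R 4.3.3; 6 residual degrees of freedom), with Benjamini-Hochberg adjustment at 0.05. Distances between probe sets were tested by exact permutation (scipy 1.17.1), two-sided. The fit was tested on simulated data. Alternatives were quantile normalization, median centring, leaving out the dimmest 25% or the suffixed probe sets, a trended robust variance, only the groups compared, replicate number as a block and leaving out each replicate. Genes named are all members, of each companion list up to 6 probe sets past the threshold in a triplicate comparison, smallest p first, and the 5 probe sets most like cryba4, crybb1 and crygmxl2. Members and lists were chosen with earlier results of these data known. No arrays held identical values. The number of arrays limits the precision.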

Additional observations from a re-analysis of the deposited data

Results flagged for a closer look

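Results whose effect of one morpholino differed with the presence of the other, by the test of dual minus Atg7 minus Bdh2 plus control, all rest on the lone Bdh2 array. Among crystallins these were crybb1 (0.41), the dimmer crygm2d probe set (0.96), crygmxl2 (0.67) and the brighter crygm2d probe set (0.69). Among genes of the lens and heat shock lists they were lctla (1.07), tmod4 (0.41), hspb6 (0.72), meis1a (-0.49), mafbb (-0.65), hspb8 (-0.72) and hspb1 (-1.05). Among genes of the retinal lists they were nr2e3 (1.07), crx (2.1), fabp7a (0.67), atoh7 (1.41), vsx1 (1.62) and neurod4 (0.60). Those with positive values were higher in dual morphants than the single effects add up to, and those with negative values lower. In crygmxl2, both crygm2d probe sets, lctla, nr2e3, crx, vsx1 and fabp7a, Atg7 arrays were above controls and the Bdh2 array below them. Of these, crybb1 no longer passed without control replicate 2 (adjusted p = 0.0626), and tmod4 no longer passed without control replicate 1 or 2, Atg7 replicate 3 or any 1 dual array (adjusted p of 0.0502 to 0.0762). Groups of 3 arrays were not searched for outlying samples.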

How the results depend on the processing

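Of the 31 calls made on crystallin probe sets over the 6 comparisons, 27 kept their direction and stayed past the threshold in every alternative that held the probe set, 4 were lost in some alternative, and 0 changed sign. The 4 were the brighter crygm2d probe set in dual minus control, crygm2c in Bdh2 minus control and dual minus Bdh2, and crybb1 in the departure from additivity. The count in Atg7 minus control was 3 in place of 5 with suffixed probe sets left out, since cryba4 and the dimmer crygm2d probe set are suffixed. Leaving out single arrays gave 5 to 6 crystallins in Atg7 minus control, 5 in dual minus control, 4 to 5 in dual minus Atg7, 6 in Bdh2 minus control, 5 in dual minus Bdh2 and 3 to 5 in the departure from additivity. Replicate numbers did not pair the arrays: deviations of same-numbered arrays from their group means correlated at -0.38 to 0.20. With the replicate block, the crystallin counts were 5 in Atg7 minus control, 5 in dual minus control, 4 in dual minus Atg7, 5 in Bdh2 minus control, 5 in dual minus Bdh2 and 3 in the departure from additivity; the calls lost were the 4 named above (adjusted p = 0.0716, 0.0672, 0.114 and 0.0933). The departures of meis1a (-0.46, adjusted p = 0.0504) and tmod4 (0.41, adjusted p = 0.0801) were lost with it too. Of the lens companion lists, the fibre list had 2 in place of 1 called after quantile normalization, and the photoreceptor list 1 in place of 3 with the replicate block, both in Atg7 minus control. Of 99 calls on 27 companion probe sets, tried under alternatives chosen after seeing the data, 26 were lost in some alternative and 0 changed sign. The causes were not tested.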
